A study of Mus musculus with 26 samples.

Results

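Mouse skin carcinoma lines with almost no RNA of E-cadherin, the adhesion protein that holds epithelial cells together, were found under 2 different labels in this collection of 26 lines, and the 2 sets were compared. The first set was MSC12, MSC11B and MSC7A (3 lines), squamous carcinoma lines from Spretus/CBA crossed mice whose labels say that spindle pathology was absent. They were picked from the 6 lines of that cross because the Cdh1 probe set, which reads the gene of E-cadherin, was under 5 on the log2 scale. The second set was the 7 lines labelled with spindle pathology, in which tumour cells are drawn out and resemble fibroblasts: D3, D3DP, A5, H11, MSN2, CarB and CarC. No cross or strain is named for any spindle line, so cross and group cannot be told apart. All lines were grown with serum and taken in log phase, and each was measured on 1 Affymetrix M430 array as log2 values (RMA), so that an n counts lines and an error is the spread between lines. The number of arrays, 10 in this comparison, limits the precision.

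The values that chose the MSC lines are a description and not a result. Cdh1 was at 3.25 in MSC12, 3.25 in MSC11B and 3.54 in MSC7A, and ran from 3.02 to 3.78 in the spindle lines. The nearest Spretus/CBA line on the other side of the limit was MSCb1 at 10.02, and the lowest of the 9 other carcinoma lines without spindle pathology was 9.13. There was therefore a wide empty range around the limit, and both sets lay at the bottom of the scale. Vim, the gene of the intermediate filament vimentin, was high in both sets, at 14.14 ± 0.25 (SD, n = 3) in the MSC lines and 14.06 ± 0.18 (SD, n = 7) in the spindle lines. The Cdh1-linked genes of epithelial junctions, desmosomes, keratins and the basal epidermis go with the choice and are given below without a test. The exception is F11r, a tight-junction gene that was called between MSC12 with MSC7A and the spindle lines.

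Carcinoma cells that lose E-cadherin can pass through epithelial-mesenchymal transition, a programme in which transcription factors of the Snail, Zeb and Twist families repress epithelial genes while vimentin, fibrillar collagens and matrix-modifying enzymes rise. Spindle carcinoma of mouse skin is a classic example of this end state. Mesenchymal cells of the dermis also carry positional genes, such as Hox, Dlx and En1, that mark where on the body they arose, and they differ from one another in the collagens and adhesion proteins they make. 

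The 3 MSC lines did not form a close set of arrays. Over the 11982 genes tested, the array of MSC11B had its highest Pearson r with MSN2 (0.962) and D3DP (0.954), both spindle lines, and lower values with MSC7A (0.916) and MSC12 (0.905). MSC12 was most like MSC7A (0.913), and MSC7A was most like MSC11B (0.916). MSC7A was almost as close to the spindle lines D3DP (0.911) and MSN2 (0.906) as to MSC12. The spindle lines themselves fell into 3 sets of close arrays: A5 with H11 (0.986), D3 with D3DP and MSN2 (0.951 to 0.972), and CarB with CarC (0.924). These r values are across genes, which share probe brightness and are not independent replicates, and they are descriptions. MSC11B was singled out because of its likeness to MSN2 and D3DP, so comparisons of it are read as descriptions too, and the main values are given with and without it.

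**Figure D1:**
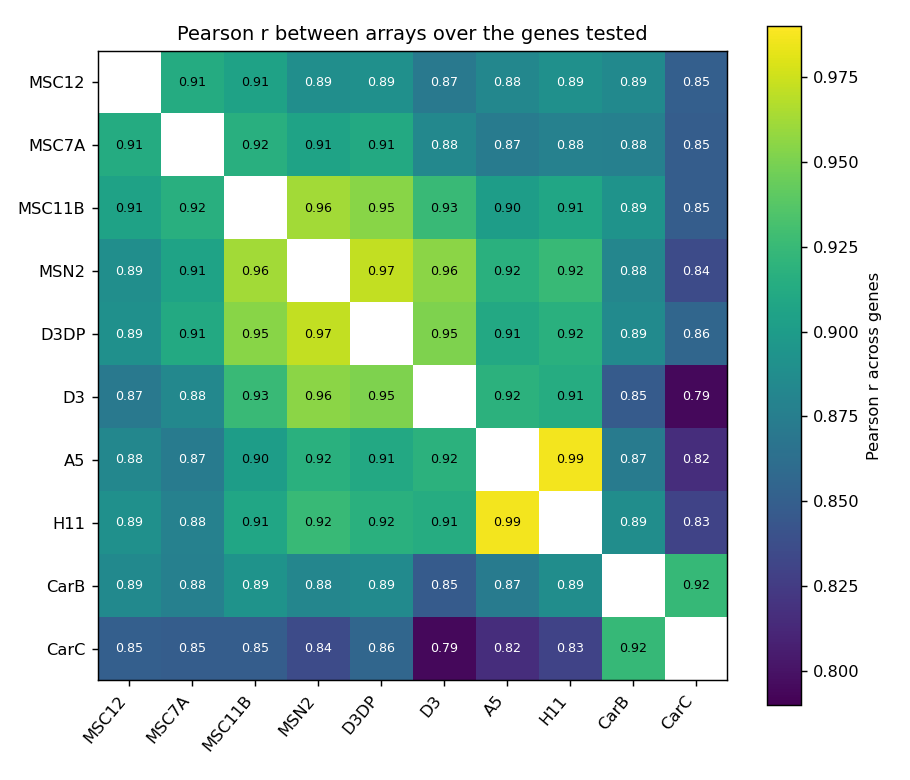
Pearson r between the arrays of the 10 lines over the 11982 genes tested, as a coloured grid with the value written in each cell (rows and columns are lines, colour is r). MSC11B is closest to MSN2 at 0.96, and CarC has the lowest values against the D3 array (0.79).

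Genes of the same arrays were then picked because MSC11B, D3, D3DP and MSN2 lay apart from the other 6 lines. The sharing by these 4 lines was thus set by the choice and is not separate evidence of likeness. In these 4 lines 15 genes (0.125%) were higher than in the other 6 by 2 log2 units or more, and 1 (0.00835%), Cth, was lower. Of the 15, 10 were neighbours on chromosome 5 in the gene order of GRCm38.p6. All 11 tested genes from Cdk6 to Fzd1 were higher in all 4 lines than in all 6 others, by 2.94 to 4.65 on average on the log2 scale. The next longest run of tested neighbours with that pattern held 4 genes (Hoxa9 to Hoxa11os), and 3.84% of all genes had it. The 4 lines were chosen after their values were seen, so no test is given.

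Cdk6, the cell cycle kinase that phosphorylates the retinoblastoma protein, was at 12.95 in MSC11B, 12.83 in MSN2, 12.61 in D3DP and 13.04 in D3. It was at 9.76 in MSC12, 9.92 in MSC7A and from 7.78 to 9.98 in A5, H11, CarB and CarC, and it did not pass 10.44 in the 16 remaining lines of the series. Krit1, a vascular integrity gene, was at 12.27, 11.43, 11.76 and 11.92 in MSC11B, MSN2, D3DP and D3 against 7.30 to 7.98 in the other 6. Fzd1, a Wnt receptor at the end of the run, was at 13.76, 13.26, 13.34 and 11.73 against 8.76 to 10.53. Cdk14, the next tested gene, was between 9.15 and 9.97 in the 4 lines and 8.94 and 9.67 in the other 6, so the step ended between Fzd1 and Cdk14. The arrays read RNA, and the DNA of the region was not measured.

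**Figure D2:**
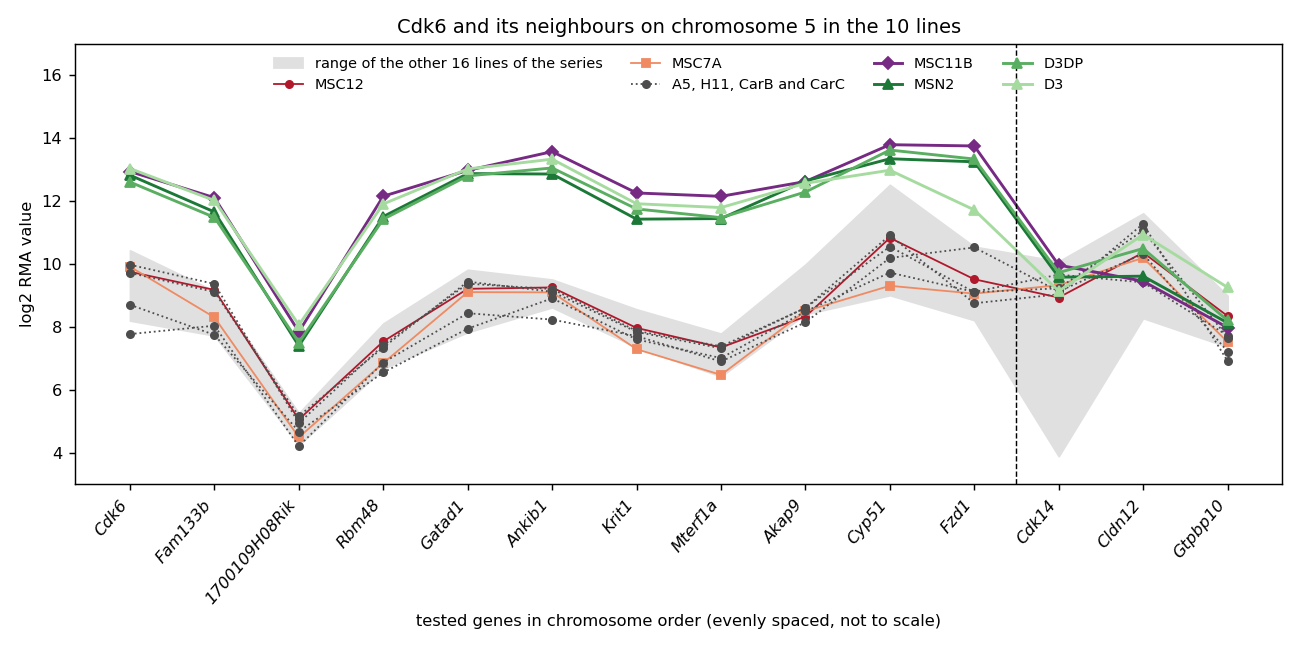
Log2 values of Cdk6 and the tested genes that follow it on chromosome 5, in gene order, evenly spaced. MSC11B, MSN2, D3DP and D3 lie above the other lines from Cdk6 (12.61 to 13.04) to Fzd1, left of the dashed line, and overlap with them from Cdk14 on; the grey band is the range of the 16 other lines of the series.

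Of the genes picked above, Eif2s3y and Kdm5d were Y-linked, so their sharing was likewise set by the choice. Eif2s3y, a translation factor gene of the Y chromosome, was at 9.59 in MSC11B, 8.19 in MSN2, 8.56 in D3DP and 7.66 in D3 and between 3.03 and 3.31 in the other 6 lines. Kdm5d, a histone demethylase gene of the same chromosome, was at 7.88, 6.10, 7.05 and 5.34 against 3.04 to 3.16. Xist, the RNA of the inactive X chromosome, did not follow: it was at 11.16 in MSC11B but 5.51 to 5.68 in the other 3, and at 5.11 in MSC12 and 11.14 in MSC7A. MSC11B was thus the one line of the 10 with both Xist and Y-linked genes high. The labels give the sex of no line. Whether MSC11B shares an origin or cells with D3, D3DP and MSN2 was not tested.

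With all 3 MSC lines against the 7 spindle lines, 2 of 11982 genes were called by limma at a Benjamini-Hochberg adjusted p under 0.05 (0.0167% of the genes tested), both higher in the MSC lines. With the lines of 1 name family averaged (D3 with D3DP, CarB with CarC) 0 were called. At an unadjusted p under 0.05 there were 779, 426 higher and 353 lower. Since each line was measured once, these p-values measure the spread between lines. Fewer cells of a kind and less RNA per cell cannot be told apart in such arrays.

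Sfrp2, a secreted binder of Wnt ligands made by dermal fibroblasts, was at 5.17 in MSC12, 5.16 in MSC7A and 6.41 in MSC11B. In the spindle lines it ran from 3.29 in MSN2 to 3.60 in H11, with a median of 3.43. Every MSC line was above every spindle line, and the spindle lines differed little among themselves. The difference was 2.15 on the log2 scale (SE 0.25, limma adjusted p = 0.0318), and 1.74 without MSC11B (limma adjusted p = 0.000767). With name families averaged it was 2.15 and was not called (limma adjusted p = 0.145). The level was low in both sets: array medians ran from 5.04 to 5.15, so the spindle values were below them and those of MSC12 and MSC7A only just above. A gene had to be above the array median on at least 2 of the 10 arrays, so Sfrp2 was tested only because of its MSC values. The values hold no background call, so a difference from a value near the bottom of the scale is one of array signal and no fold is given for it. Among the 9 other carcinoma lines Sfrp2 was between 3.22 and 4.16.

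Arhgap44 was at 6.05 in MSC12, 6.52 in MSC7A and 6.40 in MSC11B. The spindle lines ran from 4.25 in CarB to 4.57 in H11, apart from MSN2 at 5.16. Like Sfrp2, Arhgap44 was tested only because of its MSC values, as the spindle lines other than MSN2 were below the array medians. The difference was 1.84 (SE 0.21, limma adjusted p = 0.0318), and 1.80 without MSC11B (limma adjusted p = 0.0315). With name families averaged it was 1.78 and was not called (limma adjusted p = 0.145). The other carcinoma lines held Arhgap44 between 4.31 and 6.90, so the MSC values lay inside the range of E-cadherin-positive lines. Both calls were lost on leaving out any 1 of MSC12, MSC7A, D3, D3DP, A5, H11 or CarC (adjusted p from 0.0525 to 0.204), and for Sfrp2 also without MSN2 (0.123), while the differences stayed between 1.74 and 2.36.

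The promoter window of Sfrp2 is shown because it is the one gene called in the comparisons of all 3 MSC lines, of MSC11B and of MSC12 with MSC7A against the spindle lines. It spans chr3:83766071-83766370 on the plus strand of GRCm38.p6, from 250 bases before the gene start to 50 after, as RefSeq gives it, with each CG dinucleotide in capitals. It is reference sequence and not that of the lines.
Sfrp2: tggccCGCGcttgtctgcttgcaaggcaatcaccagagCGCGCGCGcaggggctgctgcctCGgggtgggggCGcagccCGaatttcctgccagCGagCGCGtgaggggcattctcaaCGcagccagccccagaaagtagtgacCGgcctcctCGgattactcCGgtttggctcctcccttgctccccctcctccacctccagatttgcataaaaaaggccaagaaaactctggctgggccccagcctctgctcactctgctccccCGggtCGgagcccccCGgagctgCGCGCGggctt
It holds 22 CG, and 23.3% of the 27025 RefSeq windows of the same length hold as many or more, against a median of 7.

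Most of what set the groups apart did not pass the adjusted test. Of the genes tested, 138 (1.15%) had all 3 MSC values above all 7 spindle values and 127 (1.06%) had all 3 below. The genes named from these were chosen after their values were seen and are given as values. The plot of values by line shows 19 of them.

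**Figure D3:**
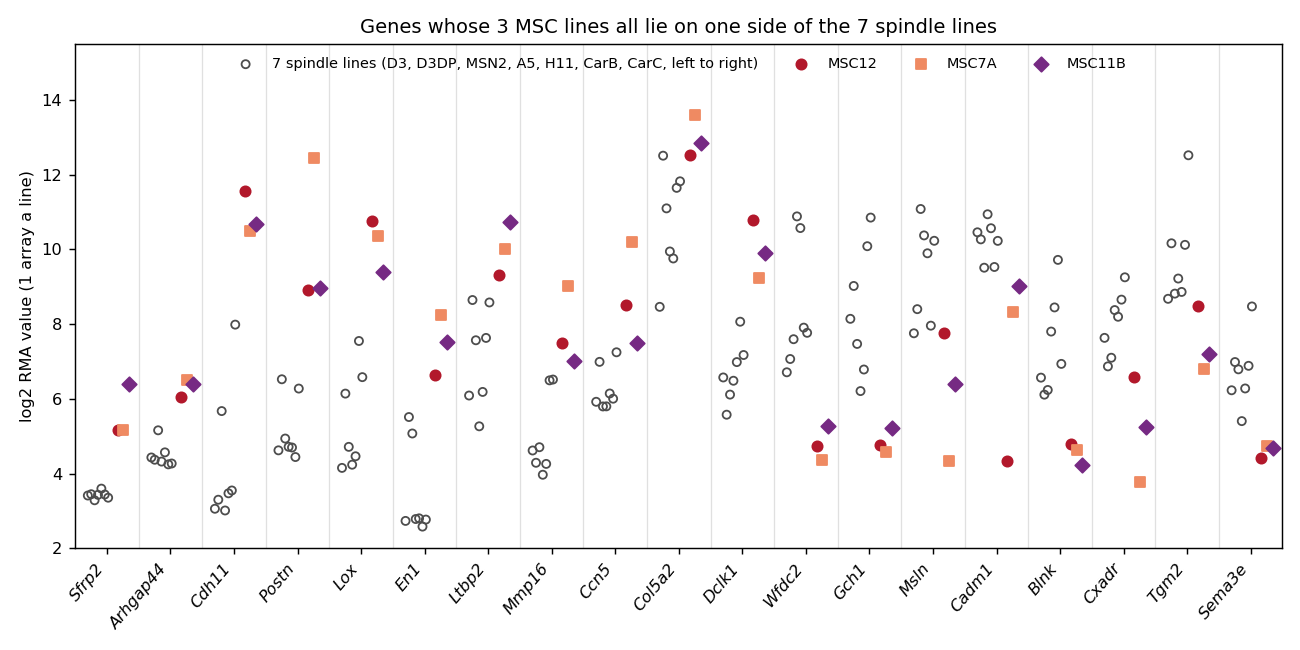
Log2 values in each line for 19 genes whose 3 MSC lines all lie above (Sfrp2 to Dclk1) or all below (Wfdc2 to Sema3e) the 7 spindle lines. Open circles are the spindle lines and filled symbols the MSC lines, 1 array each; Cdh11 shows the widest step, with MSC lines from 10.49 to 11.57, and only Sfrp2 and Arhgap44 were called.

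Adhesion differed most at Cdh11, the gene of cadherin-11, a mesenchymal cadherin of fibroblasts and bone-forming cells. It was at 11.57 in MSC12, 10.49 in MSC7A and 10.68 in MSC11B. In the spindle lines it was at 7.99 in CarC, 5.67 in MSN2 and between 3.01 and 3.55 in the other 5. All MSC lines were thus above all spindle lines, with CarC the nearest. The 5 lowest were near the bottom of the scale. The log2 difference was 6.62 (SE 1.02), and 6.74 without MSC11B, and was not called (limma adjusted p = 0.127, and 0.093 without MSC11B). A second probe set of Cdh11 read lower throughout, at 7.04, 4.97 and 4.14 in MSC12, MSC7A and MSC11B against 2.92 to 3.55 in the spindle lines.

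Most other cadherins had overlapping values. Cdh2, the gene of N-cadherin, was at 9.20, 11.21 and 8.51 in MSC12, MSC7A and MSC11B, and in the spindle lines ran from 3.87 in CarC to 9.43 in A5, so the sets overlapped (difference 1.85, limma adjusted p = 0.876, and 2.42 without MSC11B). Fat1, an atypical cadherin, was between 11.53 and 12.30 in the MSC lines and between 10.22 and 11.06 in the spindle lines, with no overlap (difference 1.24, SE 0.24, limma adjusted p = 0.254, and 1.37 without MSC11B). Of the 18 members of the cadherin and protocadherin list that were tested, 0 were called, 2 had all MSC lines above all spindle lines (Cdh11 and Fat1, beside 1.15% of all genes), 10 were higher on average, and the median difference was 0.09 against 0.01 over all genes. The remaining members had overlapping values: Cdh13 ran from 6.51 to 8.36 in the MSC lines and 6.90 to 8.63 in the spindle lines, and Pcdh19 from 9.18 to 10.32 and 5.28 to 11.02. Cdh3, the gene of P-cadherin, was low in both, from 6.08 to 6.80 and 5.60 to 6.69. Of the catenins, partners of the cadherins, Ctnnb1 was close in both sets, at 12.48 to 12.80 and 12.09 to 12.65. Ctnna1 overlapped, at 10.88 to 12.11 and 11.04 to 12.72. Ctnnd1 was at 9.57, 9.61 and 8.95 in MSC12, MSC7A and MSC11B against 8.31 to 9.01 (difference 0.67, limma adjusted p = 0.486, and 0.88 without MSC11B).

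Mesenchymal and matrix genes mostly had higher average values in the MSC lines, though none was called. Of 26 mesenchymal genes tested, 25 had a positive difference, 0 were called and 4 (Cdh11, Col5a2, Postn and Lox) had all MSC lines above all spindle lines, beside 1.15% of all genes. The median difference was 1.41, and 1.59 without MSC11B, beside 0.01 and 0.00 over all genes. Of 39 matrix glycoproteins and proteoglycans, 35 were positive with a median of 1.01 (1.20 without MSC11B), and of 21 collagens, 19 were positive with a median of 0.95 (0.67 without MSC11B). None of either list was called. By line, the mean of the mesenchymal list was 10.88 in MSC12, 10.62 in MSC7A and 10.28 in MSC11B. It was 10.84 in CarC and 10.16 in CarB, and 7.30 to 8.53 in the remaining spindle lines. CarC also lay within the MSC range for the collagen list (9.03) and for matrix glycoproteins and proteoglycans (8.62). The higher group averages thus did not set the MSC lines apart from CarC. These lists were drawn up with results of these lines known, so the counts describe the lines and are not independent evidence.

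Postn, the gene of periostin, a matricellular protein that binds collagen, was at 8.93 in MSC12, 12.44 in MSC7A and 8.98 in MSC11B. The spindle lines ran from 4.44 in CarB to 6.53 in D3DP. The groups did not overlap, and the difference was 4.94 (SE 0.77, limma adjusted p = 0.127), and 5.51 without MSC11B. Lox, the gene of lysyl oxidase, which crosslinks collagen and elastin, was at 10.76, 10.35 and 9.39 in MSC12, MSC7A and MSC11B and between 4.15 in D3 and 7.55 in CarB among the spindle lines. Its difference was 4.76 (SE 0.75, limma adjusted p = 0.127), and 5.15 without MSC11B. A second probe set gave the same order of groups, but another was at 3.44 in MSC12 against 10.40 in MSC7A and 8.17 in MSC11B, so that the probe sets of Lox disagreed for MSC12.

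Further matrix genes without overlap were Ccn5, a secreted regulator of matrix (7.50 to 10.20 against 5.80 to 7.25), Ltbp2, a binder of microfibrils (9.32 to 10.74 against 5.27 to 8.65), Mmp16, a membrane-bound metalloproteinase (7.03 to 9.02 against 3.97 to 6.52), and P4ha2, a collagen prolyl hydroxylase (8.47 to 9.44 against 6.46 to 8.33). Col5a2, a fibrillar collagen chain, came close to overlap, with MSC12 at 12.52 and D3DP at 12.51. Its difference of 2.23 became -0.78 with the cross as a term beside the 9 other carcinoma lines. That term rests only on MSCP1, MSCP5 and SN161 against the rest of those 9 lines, so it does not tell cross from group. One matrix enzyme ran the other way: Tgm2, a transglutaminase, was at 6.79 to 8.50 in the MSC lines and from 8.68 in D3 to 12.52 in CarC, a difference of -2.27 (SE 0.78, limma adjusted p = 0.634), and -2.13 without MSC11B.

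The best known fibrillar collagens did not divide the groups. Col1a1, a chain of type I collagen, was at 11.02 in MSC12 and 13.42 in MSC7A but 6.06 in MSC11B. Among the spindle lines it was at 10.72 in CarC and 8.20 in CarB and between 3.79 and 4.24 in the other 5. High values were thus found in MSC12, MSC7A, CarC and CarB, and low ones in the rest. Col1a2, the partner chain, followed the same lines, at 13.21, 14.13 and 9.63 in MSC12, MSC7A and MSC11B, 13.25 and 13.80 in CarB and CarC, and 5.45 to 9.79 in the other spindle lines. Mmp2, a gelatinase, was at 10.06, 11.52 and 7.69 in the MSC lines in the same order, at 11.56 and 13.32 in CarB and CarC, and at 5.53 or lower in the others. Dcn, a collagen-binding proteoglycan, was high in MSC12 (11.49), CarB (10.59) and CarC (10.93) and at 6.06 or lower elsewhere, MSC7A included (5.06). With CarB and CarC left out, a setting added after the data were seen, the count for MSC lines against spindle lines was 40 genes in place of 2. The contrast therefore depended on which spindle lines it used.

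**Figure D4:**
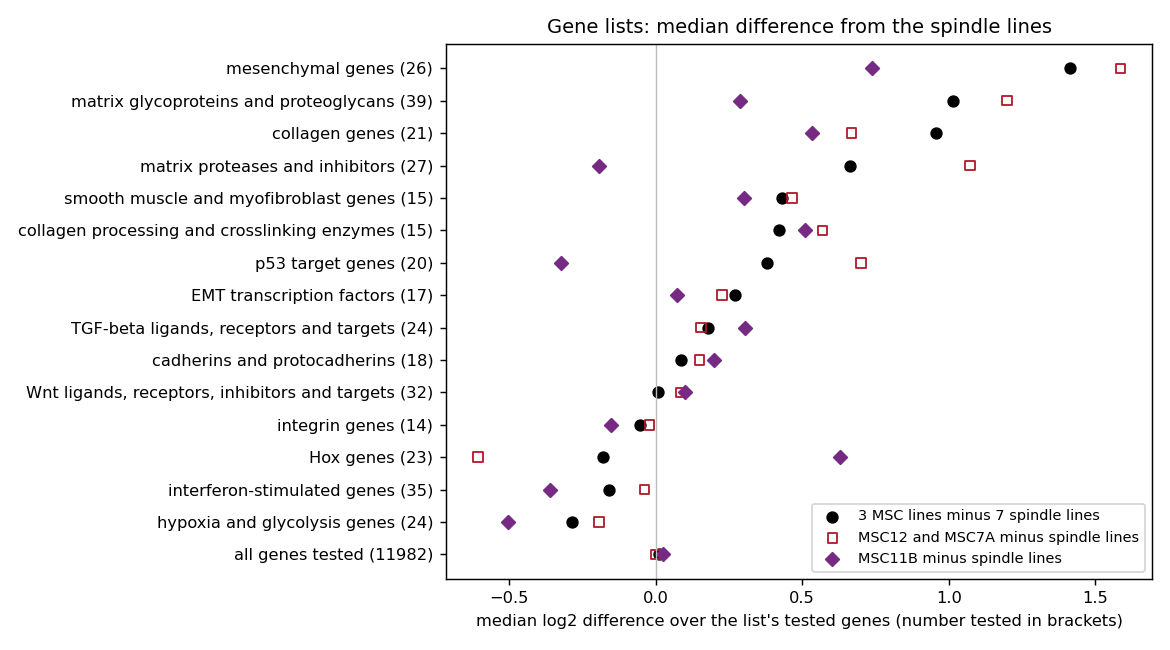
Median log2 difference from the 7 spindle lines over the tested genes of each list (number in brackets), for the 3 MSC lines together (circles), MSC12 with MSC7A (open squares) and MSC11B alone (diamonds). Mesenchymal genes reach 1.41 for all 3 lines and 0.74 for MSC11B alone, while the median over all genes is near 0.

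Contractile genes showed the same pattern of higher averages with overlap. Of 15 smooth muscle and myofibroblast genes tested, 14 were positive, 0 were called and 1 (Lmod1) had all MSC lines above all spindle lines, beside 1.15% of all genes. The median was 0.43. Acta2, the gene of smooth muscle actin, was at 13.45, 14.42 and 13.36 in MSC12, MSC7A and MSC11B. D3DP reached 13.68, while A5 and H11 were at 7.47 and 6.98. Tagln, an actin-binding protein of the same cells, was at 9.65, 12.86 and 8.26 in the MSC lines and from 5.29 in H11 to 8.83 in D3DP. A5 and H11 were thus the low lines of the spindle set for both genes. The summed linear level of 10 pericyte and vascular smooth muscle markers was 12400 to 26100 in the MSC lines and 862 to 15500 in the spindle lines, and its part in these values was not tested.

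The transcription factors of epithelial-mesenchymal transition did not separate the groups. Of 17 tested, 0 were called, 0 had all MSC lines on 1 side, 12 were higher on average in the MSC lines, and the median difference was 0.27. Over all genes tested, 1.15% had all MSC lines above and 1.06% below. Snai1, the gene of Snail, was at 8.68 in MSC12, 8.80 in MSC7A and 6.39 in MSC11B and from 4.63 in MSN2 to 7.99 in CarC (difference 1.95, SE 0.80, limma adjusted p = 0.716, and 2.73 without MSC11B). MSC12 and MSC7A were above every spindle line and MSC11B was inside their range. Snai2 was between 10.54 and 11.55 in the MSC lines and 9.62 and 11.55 in the spindle lines. Zeb1 was at 9.63 in MSC7A and 9.52 in MSC11B, and between 8.83 and 10.82 in the spindle lines, while Zeb2 was between 7.97 and 8.89, and 7.36 and 8.34. Twist1 ran from 8.46 to 8.87 and from 8.32 to 9.27, and Twist2 from 9.36 to 11.52 and from 8.43 to 10.85. All 10 lines thus had Zeb1 above the highest of the 9 other carcinoma lines, 8.66.

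The remaining members of that list also overlapped. Prrx1, a homeobox factor of limb and dermal mesenchyme, was at 10.94, 9.95 and 11.50 in MSC12, MSC7A and MSC11B and from 6.48 in D3 to 10.81 in CarC. Tbx18, a T-box factor of mesenchyme, was at 8.34, 9.04 and 7.84 in the same lines, at 8.52 and 7.76 in CarB and CarC, and between 4.12 and 5.03 in the other spindle lines. Foxc1 was lower in MSC12 (7.14) and MSC7A (7.15) than in MSC11B (9.07) or the spindle lines, which ran from 7.64 to 10.56. Prrx2, Foxc2, Foxf1, Foxf2, Sox4, Runx1, Tcf4 and Snai3 had overlapping values, with differences from -0.80 (Runx1) to 1.39 (Foxc2).

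A few positional genes had groups that did not overlap. En1, a homeobox gene of ventral skin and limb and of some dermal fibroblasts, was at 6.64 in MSC12, 8.24 in MSC7A and 7.53 in MSC11B. It was at 5.07 in MSN2 and 5.51 in D3DP and between 2.58 and 2.80 in the other 5 spindle lines. The groups did not overlap, with a log2 difference of 4.0 (SE 0.72, limma adjusted p = 0.219), and 3.97 without MSC11B, though those 5 lines were near the bottom of the scale. Dlx2 was at 8.39, 8.92 and 7.23 in MSC12, MSC7A and MSC11B against 5.01 to 6.65, and its neighbour Dlx1 was at 6.66, 8.20 and 6.41 against 5.09 to 6.12. Of the 33 dermal and limb positional regulators tested, 3 had all MSC lines above and 0 below, 0 were called, and the median difference was 0.07. Over all genes tested, 1.15% had all MSC lines above and 1.06% below.

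Of the genes lower in every MSC line than in every spindle line, 5 are given as examples chosen after their values were seen. The epithelial junction, desmosome and keratin lists had 0 members of this kind, beside 1.06% of all genes tested. Wfdc2, a secreted protease inhibitor of glandular epithelia, was at 4.73, 4.37 and 5.28 in MSC12, MSC7A and MSC11B, and from 6.71 in D3 to 10.88 in A5 among the spindle lines (difference -3.57, SE 0.91, limma adjusted p = 0.366, and -3.81 without MSC11B). Gch1, the first enzyme of tetrahydrobiopterin synthesis, was between 4.58 and 5.22 against 6.21 to 10.85 (difference -3.51, SE 0.92, limma adjusted p = 0.397, and -3.69 without MSC11B). Cxadr, the coxsackievirus and adenovirus receptor of cell junctions, was between 3.78 and 6.59 against 6.87 to 9.25 (difference -2.81). Cadm1, an immunoglobulin-family adhesion molecule, was at 4.33 in MSC12 and at 8.33 and 9.02 in MSC7A and MSC11B, against 9.51 to 10.94. Sema3e, a secreted guidance cue, was at 4.43 to 4.74 against 5.41 to 8.47. Each of these had no overlap and none was called.

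Simple keratins and desmosomal genes, described without a test, were high in some spindle lines and not in others. Krt18, which pairs with Krt8 in simple epithelia, was at 3.90 in MSC12, 4.0 in MSC7A and 6.03 in MSC11B. It was between 9.85 and 12.01 in D3, D3DP, MSN2, A5 and H11, but 6.6 in CarB and 6.0 in CarC. Krt8 was at 4.64, 5.40 and 5.04 in MSC12, MSC7A and MSC11B and high in MSN2 (11.46), D3 (11.39), CarC (10.48) and D3DP (9.15), with A5, H11 and CarB between 5.02 and 5.73. Perp, a desmosomal membrane protein, was near the bottom of the scale in MSC12 (3.20), MSC7A (3.87) and CarC (3.96), and was at 9.77 in MSC11B and from 8.92 to 10.49 in the other 6 spindle lines. F11r, the gene of the tight-junction protein JAM-A, was at 5.20, 7.35 and 9.12 in MSC12, MSC7A and MSC11B against 9.11 to 9.90. A second probe set of F11r showed no such step, at 4.82, 5.07 and 5.18 against 4.73 to 5.41. Unlike the other genes here, F11r is also among the calls between MSC12 with MSC7A and the spindle lines (limma adjusted p = 0.0233). That call is read as a description. The classical stratified keratins were low everywhere, Krt14 between 4.07 and 5.44 and Krt5 between 4.96 and 5.61.

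Markers of other cell types were checked for the whole of each list. Of 11 endothelial markers measured, 1 or 2 were above the array median in every MSC line and every spindle line, and their summed linear level was 278 to 300 and 282 to 338. Of 12 macrophage and leukocyte markers, 4 or 5 were above the median in each line, and Lyz2, a lysozyme gene of macrophages, was at 8.09 in MSC12 and between 4.80 and 5.43 in the other 9 lines. The 8 melanocyte markers gave 3 in each line. Fibroblast markers, by contrast, were above the median for 8 to 10 of 16 in the MSC lines and 5 to 9 of 16 in the spindle lines. Their summed level was 4820 to 31500 and 1450 to 29700, and the part of their level in the matrix values was not tested.

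MSC11B was then set against each group on its own, as a lone line assumed to vary like the others. Against the 7 spindle lines, 1 gene of 11982 was called (0.00835%), Sfrp2, with a difference of 2.98 (SE 0.18, limma adjusted p = 0.000601). At an unadjusted p under 0.05 there were 327. Against MSC12 and MSC7A, 6 genes were called (0.0501%), 1 higher in MSC11B and 5 lower, with 538 at an unadjusted p under 0.05. These calls only rank the genes, since the line was singled out for its array's likeness.

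The 1 gene higher in MSC11B was Baiap2l1, the gene of IRTKS, which links membranes to actin in epithelial cells. It was at 4.14 in MSC12, 4.57 in MSC7A, 12.13 in MSC11B and 12.12 to 12.95 in the spindle lines. MSC11B was thus at the spindle level, and MSC12 and MSC7A were near the bottom of the scale. The difference from MSC12 and MSC7A was 7.77 (SE 0.41, limma adjusted p = 0.000156), and a second probe set gave 4.19, 4.47 and 11.23. Outside these 10 lines Baiap2l1 was between 7.18 in MSCP5 and 12.11 in the 9 other carcinoma lines, so no other carcinoma line of that group was as low as MSC12 and MSC7A.

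The widest of the 5 lower genes was Epb41l3, a membrane skeleton protein of the band 4.1 family. It was at 11.05 in MSC12, 11.02 in MSC7A, 5.02 in MSC11B and 4.36 to 5.23 in the spindle lines, a difference of -6.02 (SE 0.34, limma adjusted p = 0.000156), and its 2 other probe sets had the same order. Sgce, the imprinted gene of epsilon-sarcoglycan, was at 8.20 and 8.61 in MSC12 and MSC7A, 4.07 in MSC11B and at most 4.09 in the spindle lines. A second probe set of Sgce showed little of this, at 4.24 and 3.99 in MSC12 and MSC7A and 3.86 in MSC11B. Gpx7, a peroxidase of the endoplasmic reticulum, was at 7.97 and 8.45 against 4.13 in MSC11B and 3.98 to 4.23 in the spindle lines. Cnrip1, a partner of the cannabinoid receptor, was at 8.69 and 9.01 against 5.05 and 4.66 to 4.97, and Clip3, a microtubule linker, at 7.22 and 7.68 against 4.41 and 3.75 to 4.31. A second probe set of Cnrip1 read low throughout, at 4.63 and 4.65 in MSC12 and MSC7A and 4.33 in MSC11B. In each of the 6 genes MSC11B lay at or next to the spindle range. Sgce, Gpx7 and Clip3 were below the array medians in MSC11B and all spindle lines. Outside MSC12 and MSC7A, Epb41l3 passed the array median only in CarC (5.23), and Cnrip1 at most in MSC11B (5.05). All 5 lower genes were therefore tested only because MSC12 and MSC7A were high.

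The promoter windows of the 2 genes with the largest steps are shown, since each is high in 1 set of lines and near the bottom of the scale in the other. Baiap2l1 spans chr5:144358063-144358362 on the minus strand and Epb41l3, the first of 3 windows listed for it, chr17:69075427-69075726 on the plus strand, both GRCm38.p6 from RefSeq, 5′ to 3′ with CG in capitals.
Baiap2l1: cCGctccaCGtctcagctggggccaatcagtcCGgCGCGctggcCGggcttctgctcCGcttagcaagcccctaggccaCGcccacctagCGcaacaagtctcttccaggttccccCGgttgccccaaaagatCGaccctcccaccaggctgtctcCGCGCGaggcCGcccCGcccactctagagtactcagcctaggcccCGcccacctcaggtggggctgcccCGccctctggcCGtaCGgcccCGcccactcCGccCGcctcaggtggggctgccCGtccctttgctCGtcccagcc
Epb41l3: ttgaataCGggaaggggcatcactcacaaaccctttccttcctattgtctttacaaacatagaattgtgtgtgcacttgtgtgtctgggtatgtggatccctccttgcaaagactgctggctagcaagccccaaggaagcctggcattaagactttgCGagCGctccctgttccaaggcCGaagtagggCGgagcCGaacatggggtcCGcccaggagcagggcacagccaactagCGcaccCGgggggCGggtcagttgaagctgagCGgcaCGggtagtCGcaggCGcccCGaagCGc
They hold 25 and 16 CG, numbers reached by 18.4% and 33.5% of all windows. Of the 8 genes looked up 7 had a window. DNA methylation was not measured, and a count of CG says nothing of it.

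A gene was tested if above the array median on at least 2 of the 10 arrays, and MSC12 with MSC7A alone can meet this. Among the calls below, Grb10, Sgce, Gpx7, Clip3, Mfap5, Nox4, Sall2, Slc2a10, BC034090 and Lyz1 were under 5.04 in MSC11B and all spindle lines. Outside MSC12 and MSC7A, Epb41l3 passed the array median only in CarC (5.23), and Cnrip1 and Sfrp2 at most in MSC11B. All of these genes were tested only because MSC12 and MSC7A were high, so their p-values and the split by direction are read as descriptions. MSC12 and MSC7A without MSC11B gave more calls against the spindle lines: 25 of 11982 (0.209%), 19 higher and 6 lower, with 985 at an unadjusted p under 0.05. The count was 7 with close spindle arrays averaged, 51 without MSC12 and 62 without MSC7A, the last 2 with 1 MSC line left, assumed to vary like the spindle lines, and 45 without CarC. Baiap2l1, Epb41l3, Sgce, Gpx7, Cnrip1, Clip3 and AI467606 kept their call in all 14 alternatives run for MSC12 and MSC7A against spindle lines, while Arhgap18 lost it in 10, Scara3 and Arhgap44 in 9, and Dlx2, F11r and Slc25a37 in 7. MSC11B took no part in choosing these genes, so its values can be placed against them, although it had been set apart for its array as a whole. Its value was nearer to the spindle mean than to that of MSC12 and MSC7A for 22 of the 25, among them 16 of the 19 higher and 6 of the 6 lower genes. For 16 it lay inside the range of the 7 spindle lines. The 3 exceptions were Dlx2, Arhgap44 and Sfrp2. Most lines with E-cadherin gave like counts: PDV and SN161 were nearer MSC12 and MSC7A for 2 of the 25, B9ras for 3, B9rassmad for 0, and MSCP1, PDVC57 and E4 for 1 each. B9 was nearer for 5 and MSCP5 for 9. The placing of MSC11B on these genes is thus not particular to it.

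**Figure D5:**
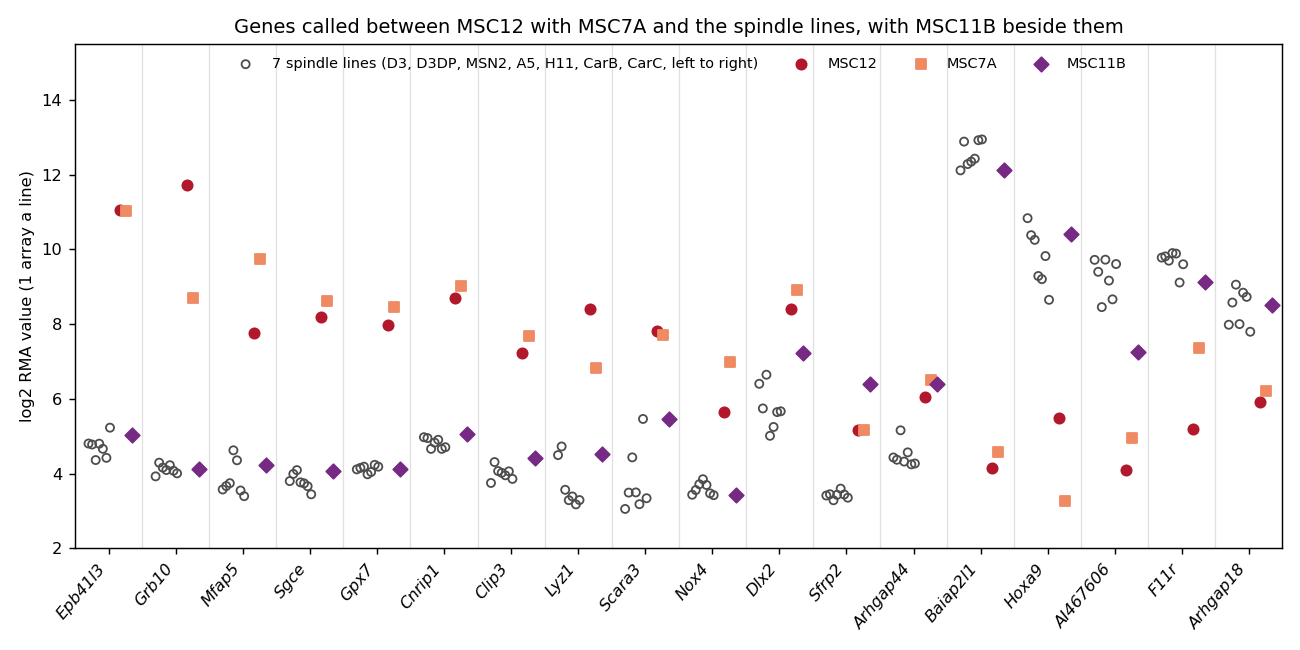
Log2 values in each line for 18 of the 25 genes called between MSC12 with MSC7A and the spindle lines. Open circles are the 7 spindle lines and filled symbols the MSC lines, 1 array each; the MSC11B diamond sits with the spindle lines for Epb41l3 (5.02) and Baiap2l1 (12.13) and with MSC12 and MSC7A for Sfrp2.

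Other genes of the 25, given as examples chosen after their values were seen, were low in MSC11B and the spindle lines. Grb10, an imprinted adaptor that restrains insulin and IGF receptor signalling, was at 11.71 in MSC12 and 8.70 in MSC7A, but 4.12 in MSC11B and 3.93 to 4.29 in the spindle lines (difference 6.09, SE 0.59, limma adjusted p = 0.00294). Mfap5, a microfibril glycoprotein, was at 7.77 and 9.73, against 4.22 in MSC11B and 3.40 to 4.62 in the spindle lines (difference 4.91, SE 0.49, limma adjusted p = 0.00353). Nox4, an NADPH oxidase, was at 5.64 and 6.99 against 3.43 and 3.42 to 3.85, and Dact1, a Wnt pathway regulator, at 7.10 and 8.11 against 5.28 and 4.76 to 5.38. MSC12 and MSC7A were apart from all 8 other lines for each of these 4 genes.

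Among the 6 that fell, Hoxa9, a posterior Hox gene, was at 5.50 in MSC12 and 3.25 in MSC7A, against 10.42 in MSC11B and 8.65 to 10.84 in the spindle lines (difference -5.40, SE 0.67, limma adjusted p = 0.013). AI467606 was at 4.11 and 4.95 against 7.26 in MSC11B and 8.46 to 9.73 in the spindle lines. F11r, Arhgap18, Slc25a37 and Baiap2l1 made up the rest. Across the 10 lines, 11 genes (0.0918%) had MSC12 and MSC7A above all 8 others by 2 log2 units or more and 4 (0.0334%) below, the latter being Baiap2l1, Hoxa9, AI467606 and Pitx1, a hindlimb homeobox gene (4.35 and 4.55 against 6.79 to 9.67).

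Posterior Hox genes and a laminin chain were high in MSC11B, D3, D3DP and MSN2, the 4 lines that share the Cdk6 pattern. Hoxa10 was at 8.70 in MSC11B, between 8.32 and 8.92 in D3, D3DP and MSN2, and at 6.42 or lower in the other 6. Hoxa11 was at 6.98, and 6.23 to 8.04, against at most 3.82. Lama3, a chain of the epidermal laminin that anchors keratinocytes, was at 11.52 in MSC11B and from 10.19 to 11.02 in the other 3, against 3.96 to 5.55. Cdh11, Postn, Lox, En1 and Ltbp2 in MSC11B were with MSC12 and MSC7A. Cdh11 was at 10.68 in MSC11B and 5.67, 3.30 and 3.06 in MSN2, D3DP and D3. A second Cdh11 probe set had MSC11B at 4.14, against 7.04 in MSC12 and 4.97 in MSC7A. Those genes were picked because all 3 MSC lines lay above all spindle lines. Hoxa11 and Lama3 were picked because MSC11B lay with D3, D3DP and MSN2. The side taken by MSC11B was thus set by each choice and is not evidence of likeness to either group. Over the 265 genes whose groups did not overlap, MSC11B was the MSC line closest to the spindle lines for 122, MSC7A for 78 and MSC12 for 65.

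For several target genes of p53, the values of MSC11B were also far from those of MSC12 and MSC7A. Of 20 tested, 0 were called between the MSC and spindle lines. The median difference was 0.38, 0.70 without MSC11B and -0.32 for MSC11B alone. Cdkn1a, the gene of the cell cycle inhibitor p21, was at 11.06 in MSC12 and 11.40 in MSC7A, at 11.67 in CarB and 10.29 in CarC, and at 7.16 in MSC11B. It was between 6.67 and 9.01 in D3, D3DP, MSN2, A5 and H11. Eda2r, a receptor gene induced by p53, split the lines the same way, at 7.12, 6.74, 8.10 and 7.28 in MSC12, MSC7A, CarB and CarC and 3.77 to 4.26 in the other 6. Ccng1, the gene of cyclin G1, was at 11.30, 12.26, 10.95 and 10.52 in those 4 lines and 9.15 to 9.56 in the rest, so that both groups held lines of either kind.

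Lines of the same cross that kept E-cadherin were set beside the 10 lines. MSCP1 (Cdh1 at 11.62) was nearer MSC12 and MSC7A than the spindle lines for 1 of the 25 genes called between these. MSCP5 (also with Cdh1) was nearer MSC12 and MSC7A for 9 of 25, the highest count among the lines compared, and it held Epb41l3 at 9.84, Mfap5 at 9.90 and Sgce at 7.06. Cdh11 was at 9.82, Postn at 10.54, Lox at 11.09 and Col1a1 at 12.65 in MSCP5. High values of these genes therefore also occurred in a line with E-cadherin. MSCb1, a Spretus/CBA line with no spindle flag stated, was nearer for 5 of 25, and B9, for which no cross is named, also for 5.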

How the data were processed

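RNA from 26 mouse skin lines was measured on 1 Affymetrix M430 array each. The authors deposited RMA log2 values (RMA per the submitters' processing notes, with no software or probe set version given), and these were used unchanged. Array medians ran from 5.04 to 5.15. Of 45037 probe sets, 34945 named 1 gene in the platform annotation, 932 named several and 9160 none; 34741 of the first kind matched a current gene ID of GRCm38.p6. Each of 18193 genes was read by 1 probe set, that of highest average over the 26 arrays, and 11982 genes above the array median on at least 2 of the 10 arrays were tested.

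limma 3.58.1 in R 4.3.3 fitted the 3 MSC and 7 spindle lines (8 residual degrees of freedom), and, for MSC11B, a fit with MSC11B, MSC12 with MSC7A, and spindle as groups (7 residual degrees of freedom). P-values were adjusted over all genes tested by the Benjamini-Hochberg method with a threshold of 0.05, and the script was tested on simulated data. Named genes were the called genes of each comparison, every member of the transition factor and cadherin lists, Cdh1 and Vim. The genes of MSC12 with MSC7A, those whose groups did not overlap, the Cdk6 neighbours and the other list members fall outside that rule and were chosen after their values were seen. The lines and the 45 gene lists (1046 entries, 69 without a probe set of 1 gene) were chosen with earlier results of these data known. Alternatives changed the filter, the probe set rule, the variance model, the lines in the fit and the centring. Lines with no stated spindle flag entered no main fit, though B9Smad joined the spindle lines in an alternative and MSCb1 was placed on called genes.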

Additional observations from a re-analysis of the deposited data

Results flagged for a closer look

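Among 101 named genes, 9 had 1 spindle line far from the other 6, where chance flags about 1 in 20. Arhgap44 was at 5.16 in MSN2, with the nearest spindle line at 4.57. Twist1 was at 9.27 in CarB (nearest 8.71), F11r at 9.11 in CarB (nearest 9.60) and Cystm1 at 6.98 in CarB (nearest 8.41). Cdh15, the gene of M-cadherin, was at 6.51 in D3 (nearest 5.53), and Tcf7l2, a transcription factor of the Wnt pathway, at 5.73 in D3 (nearest 6.27). Tgm2 was at 12.52 in CarC (nearest 10.17), Lmod1 at 4.96 in A5 (nearest 5.33), and Eya4, a transcription cofactor, at 3.68 in H11 (nearest 3.36).

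Lines whose labels state no spindle flag entered no main fit. B9Smad was added to the spindle lines in an alternative, and MSCb1 was placed on the genes called between MSC12 with MSC7A and the spindle lines. Some lines without a flag had values above all 7 spindle lines for these genes. MSCb1 held Clip3 at 6.98, against a highest spindle value of 4.31. It held Lyz1, a lysozyme gene, at 9.59 (highest spindle value 4.73), Scara3, a scavenger receptor gene, at 9.25 (5.46) and Mfap5 at 6.67 (4.62). Mfap5 was also high in 2945CA, at 8.22.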

How the results depend on the processing

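For MSC lines against spindle lines, the count of 2 became 0 with lines of 1 name family averaged, with the cross as a term beside the 9 other non-spindle lines, and with close spindle arrays averaged (added after seeing the data). It was also 0 with a stricter filter (3 arrays, with a cutoff above the array median), but there Sfrp2 and Arhgap44 were not tested. It became 1 with B9Smad added to the spindle lines, 18 with those 9 lines as a group of their own, 4 with every probe set on its own, and 40 without CarB and CarC (added after seeing the data). Leaving out 1 line at a time gave 0 to 25 calls: 25 without MSC11B, 8 without CarB, 1 without MSN2 or CarC, and 0 without any of the other 6. MSC11B against spindle lines gave 4 calls with no filter and 3 with the mean of all probe sets, in place of 1, and 1 to 3 with 1 line left out. MSC11B against MSC12 and MSC7A gave 10 calls with no filter, in place of 6, and 6 to 20 with 1 line left out. MSC12 and MSC7A against spindle lines, with 25, gave 45 with the mean of all probe sets and 7 with close spindle arrays averaged (both added after seeing the data), and 19 to 62 with 1 line left out: 51 without MSC12, 62 without MSC7A and 45 without CarC. Without MSC12 or MSC7A that arm held 1 line, assumed to vary like the spindle lines. The cause of these changes was not tested. Over single genes, no called gene changed sign under the alternatives run, and 91 calls were lost and 24 gained. Among genes not called, 13 changed sign in 44 values. With the cross as a term, Vim went from 0.08 to -1.08, Zeb1 from 0.27 to -0.67 and Col5a2 from 2.23 to -0.78. That term was set only by MSCP1, MSCP5 and SN161 against the rest of the 9 other non-spindle lines. It took Spretus/CBA and Spretus/NIH as 1 kind and lines with no named cross as the other. These values therefore do not tell cross from group. With the mean of all probe sets Pcdh9 went from 0.33 to -0.40. No paired analysis was possible because the labels give the lines no shared replicate numbers.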
